A study of Mus musculus with 10 samples.

Results

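The genes described here are 9 regulators that MLL fusion proteins are reported to keep active in leukaemia, apart from the HOXA cluster. They are the transcription factors Mef2c, Tcf4, Zeb2, Mecom, Zfp521 and Arid3b, the coactivator Eya1, the chromatin enzyme Jmjd1c and the RNA-binding protein Msi2. Every probe set whose single gene symbol in the platform annotation was one of the 9 was taken, which gave 37 of the 45037 probe sets on the array after controls were left out. Murine Mll-AF9 leukaemia cells, designated 4166, were transduced with a lentivirus that carried a Meis1 shRNA (n = 5 arrays) or with an empty lentiviral vector (n = 5 arrays). All cells carried the Mll-AF9 fusion, were selected with puromycin, grew with 15% serum and interleukin 3 at 2 ng/ml, and were compared at 48 h. The model is limited to 1 leukaemia and, as far as the labels say, 1 hairpin construct. The labels pair the arrays by number, and they do not say whether the 5 pairs came from separate cultures, so the spread behind each p-value may be technical.

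Translocations of Mll join its DNA-targeting part to partners such as AF9, which recruit factors that promote transcript elongation. Genes bound by the fusion then stay active in myeloid progenitors that would otherwise mature, with Hoxa9 and its cofactor Meis1 as the best known of them. Several genes in the set described here are known for roles in blood stem cells or in lymphoid and dendritic lineages, and the comparison asks whether their transcripts differed when Meis1 was reduced.

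The arrays gave 1 intensity per probe set on a linear scale after RMA, and differences are given on the log2 scale as shRNA minus empty vector. Meis1 itself was lower in all 5 pairs at its brightest probe set, 1450992_a_at, with an intensity of 165 ± 40.2 with the shRNA and 346 ± 56.3 with the empty vector (SD, n = 5 each; adjusted p = 0.000767 by limma). Its other probe sets, 1443260_at and 1459423_at, were near background, with log2 differences of 0.09 and 0.11 that did not pass (adjusted p = 0.694 and 0.664 by limma). Of 10 markers of the labelled cell type, myeloid leukaemia cells, none was near background. The granule genes Mpo, Elane, Ctsg and Prtn3 had mean log2 levels of 13.33, 11.02, 12.80 and 12.42, and the dimmest, Csf1r and Fcgr3, had 3.73 and 3.15. Of the 10, 1 passed, Kit, at 218 ± 80.4 with the shRNA and 370 ± 128 with the empty vector (SD, n = 5 each; adjusted p = 0.00237 by limma). Markers of the B lineage were all near background (6 of 6 measured), with summed intensities of 29.1 to 31.9 in the shRNA arrays and 27.4 to 32.0 in the control arrays. Of the markers of plasmacytoid dendritic, T, erythroid with megakaryocytic, and mast cells, 4 of 6, 3 of 4, 3 of 7 and 4 of 4 were near background, and none of these passed the test. The plasmacytoid dendritic markers summed to 41.5 to 71.5 in the shRNA arrays and 37.5 to 59.2 in the control arrays. Near background here means a mean log2 level below 2.98, that is within 1 of the brightest bacterial Trpn control probe set. RNA integrity was gauged by the log2 ratio of 3 prime over 5 prime signal at the array's control probe sets for Gapdh and actin, which was 0.37 ± 0.02 with the shRNA and 0.28 ± 0.06 with the empty vector (SD, n = 5 each), higher in all 5 pairs.

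Mef2c and Tcf4 each had 1 probe set that was lower with the Meis1 shRNA by the test, and no member had one that was higher. Of the 37 probe sets, 2 fell (1 of Mef2c and 1 of Tcf4), 0 rose and 35 did not pass an adjusted p of 0.05 by limma, so that 5.41% passed. Over all 45037 probe sets 2.48% passed, 1.96% lower and 0.522% higher, that is 881 lower and 235 higher, or 640 lower and 345 higher after quantile normalization. Of the member probe sets 15 were near background, including all those of Eya1 and Zfp521. Of the 18805 probe sets of the array that were not near background, 4.59% were called lower, against 2 of the 22 such member probe sets (9.09%). Over all 37, 24 had a log2 difference below 0 (64.9%), with a median of -0.11, against 47.8% below 0 and a median of 0.008 over all probe sets of the array. Among those not near background, 18 of the 22 lay below 0 (81.8%, median -0.24), against 58.5% on the array (median -0.045). Mef2c and Tcf4 hold 5 each of these 22. Probe sets of 1 gene share its transcripts. In RNA from a bulk culture, fewer cells that express a gene and less of its RNA per cell cannot be told apart.

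**Figure D1:**
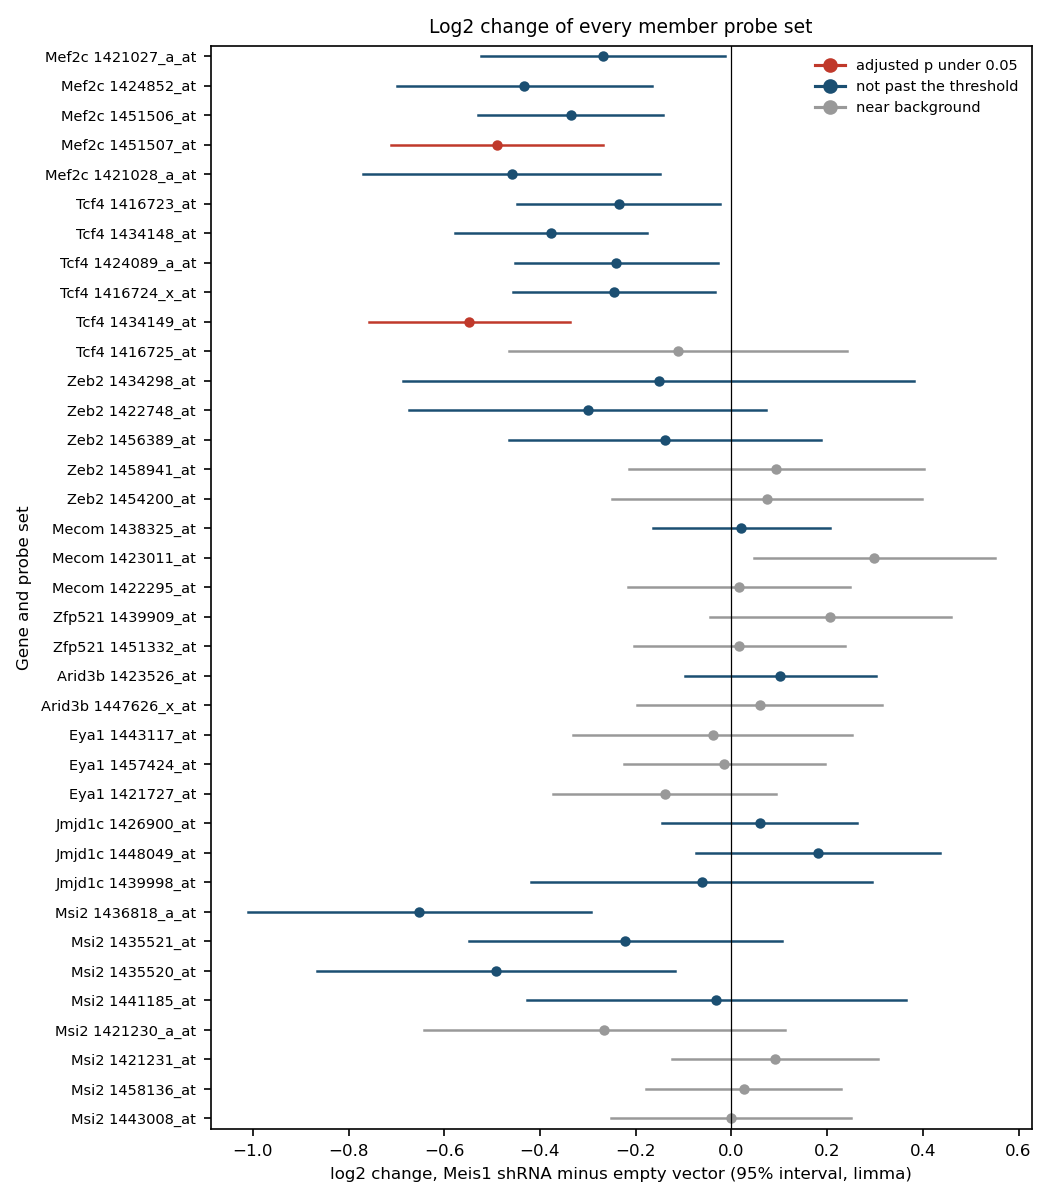
Log2 change (Meis1 shRNA minus empty vector, horizontal axis) of all 37 member probe sets with 95% intervals from limma, grouped by gene, brightest probe set first. The 5 Mef2c intervals and 5 of the 6 Tcf4 intervals lie wholly below 0, while those of Zeb2, Zfp521, Arid3b, Eya1 and Jmjd1c all span 0. Of the 8 Msi2 intervals 2 lie below 0 and 6 span it, and of the 3 Mecom intervals that of 1423011_at, near background, lies above 0 (0.05 to 0.55) and 2 span it.

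Mef2c (chromosome 13) encodes a MADS-box transcription factor of muscle, B lymphoid and myeloid development, and high levels of it accompany MLL-rearranged leukaemia. RefSeq places its transcripts at 3 separate starts, and the 250 bases before each are shown because this was the member with the most uniform decrease over its probe sets. They are read 5′ to 3′ on the plus strand of GRCm38.p6, in order along the gene, with capitals at matches to CANNTG, the E-box that E proteins such as TCF4 bind, or to TGACAG on either strand, the core that MEIS and related homeodomains bind.
Mef2c chr13:83503784-83504033: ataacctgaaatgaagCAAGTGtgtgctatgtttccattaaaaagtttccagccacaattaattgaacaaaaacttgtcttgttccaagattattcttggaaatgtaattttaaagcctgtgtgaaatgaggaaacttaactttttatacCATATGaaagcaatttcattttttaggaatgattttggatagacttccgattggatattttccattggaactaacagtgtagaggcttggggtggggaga
Mef2c chr13:83523406-83523655: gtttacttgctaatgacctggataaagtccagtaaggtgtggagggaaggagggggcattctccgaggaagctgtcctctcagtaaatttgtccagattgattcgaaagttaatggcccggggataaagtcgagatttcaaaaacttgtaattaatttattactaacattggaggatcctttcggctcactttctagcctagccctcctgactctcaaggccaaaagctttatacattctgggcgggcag
Mef2c chr13:83573357-83573606: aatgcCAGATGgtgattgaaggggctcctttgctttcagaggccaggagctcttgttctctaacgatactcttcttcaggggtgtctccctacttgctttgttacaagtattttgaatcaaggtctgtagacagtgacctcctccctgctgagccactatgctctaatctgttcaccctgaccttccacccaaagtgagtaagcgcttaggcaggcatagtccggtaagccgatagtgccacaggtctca
The first window held 2 matches to CANNTG, the second 0 and the third 1, and none of the 3 held TGACAG. Among 32851 such windows in the RefSeq promoter table, 66.2% held CANNTG and 15.9% held TGACAG. A string modelled on the MEF2 box, with fixed outer bases and any bases in its middle, was also searched. It reads the same on both strands, and was in 0 of the 16 windows of members and in 3.20% of all windows. These are counts of that string and not of the MEF2 box consensus, which was not searched. A match of letters is a description and no evidence of binding, and a window without one says nothing of the factor.

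All 5 Mef2c probe sets had a lower level with the shRNA in each of the 5 pairs. Probe set 1451507_at read 351.2, 269.9, 138.3, 187.9 and 169.1 with the shRNA in pairs 1 to 5, against 403.4, 424.4, 182.0, 288.6 and 253.3 with the empty vector. Every shRNA array lay below its own partner, yet the groups overlapped, because arrays 1 and 2 of both groups read higher than arrays 3 to 5 of the same group. The change was -0.49 on the log2 scale (SE 0.10, adjusted p = 0.0384 by limma), 1.40-fold lower, with pair differences of -0.20, -0.65, -0.40, -0.62 and -0.58. Flipping the signs of the 5 pair differences in an exact permutation test gave a two-sided p of 0.0625, the smallest that 5 pairs allow.

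The other Mef2c probe sets were also lower in every pair but did not pass. The brightest, 1421027_a_at, read 719.0, 779.3, 357.0, 370.9 and 437.5 with the shRNA, against 774.7, 788.0, 452.0, 599.2 and 496.8 with the empty vector, a log2 difference of -0.27 (SE 0.11, adjusted p = 0.311 by limma) that was -0.16 without pair 4. Probe set 1421028_a_at read 289.6, 312.4, 125.0, 158.3 and 148.4 with the shRNA, against 298.5, 327.3, 208.7, 274.1 and 233.5 with the empty vector. In that probe set pairs 1 and 2 differed little (-0.04 and -0.07), whereas pairs 3 to 5 differed by -0.74, -0.79 and -0.65. Its change was -0.46 (SE 0.14, adjusted p = 0.145 by limma). Probe sets 1424852_at and 1451506_at differed by -0.43 and -0.34 (adjusted p = 0.110 and 0.0869 by limma). Those last 2 and 1451507_at share 1 sequence accession in the platform annotation and so share a target.

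The Mef2c call depended on the pairing and on every pair. Without the pairing the adjusted p of 1451507_at was 0.500, with quantile normalization it was 0.0640 at a change of -0.41, and with any 1 pair left out it ran from 0.0562 to 0.162 by limma. With the RNA integrity ratio as covariate its change was -0.51 (adjusted p = 0.856), while that of 1421027_a_at was 0.01. As the mean of its 5 probe sets Mef2c changed by -0.40 (SE 0.09, adjusted p = 0.0362 by limma over genes).

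**Figure D2:**
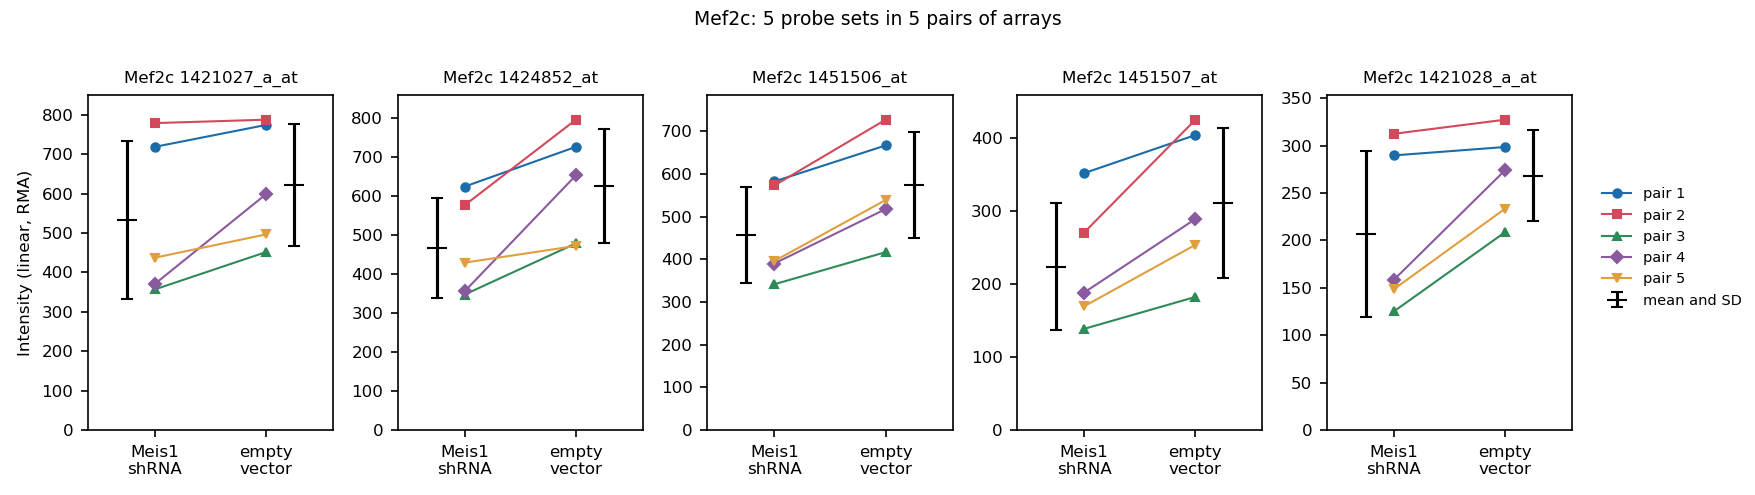
Intensity (linear scale) of the 5 Mef2c probe sets in the Meis1 shRNA arrays (left) and empty vector arrays (right), each line joining the 2 arrays of a pair, with group means and SD in black (n = 5 each). All lines run lower on the shRNA side, and pairs 1 and 2 lie above pairs 3 to 5 in both groups.

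Tcf4 (chromosome 18) encodes an E protein, a basic helix-loop-helix factor also called E2-2 that is required for plasmacytoid dendritic cells. Probe set 1434149_at read 156.1, 137.6, 138.4, 166.9 and 204.6 with the shRNA, against 213.5, 227.6, 218.7, 247.6 and 257.4 with the empty vector. The highest shRNA array lay below the lowest control array, so the groups did not overlap. This was the single member probe set with that property, 1 of 37, or 1 of the 22 not near background. On the array, every shRNA array lay below every control array in 2.75% of all probe sets. Among those not near background it did so in 1141 of 18805. The share among the members was thus no higher than on the array. The change was -0.55 on the log2 scale (SE 0.09, adjusted p = 0.0195 by limma), 1.46-fold lower, with pair differences from -0.73 to -0.33.

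A further 4 Tcf4 probe sets were well above background, with log2 differences of -0.38 to -0.24 that did not pass. Probe set 1434148_at, from the same sequence accession as 1434149_at, read 716.7, 582.2, 603.5, 732.2 and 909.1 with the shRNA, against 838.2, 855.7, 811.3, 969.0 and 1100.0 with the empty vector. It was lower in all 5 pairs, with a change of -0.38 (SE 0.09, adjusted p = 0.0683 by limma), but shRNA array 5 lay above control arrays 1, 2 and 3. The brightest, 1416723_at, read 893.0, 1070.0, 748.0, 905.6 and 1025.0 with the shRNA, against 999.2, 1067.0, 982.7, 1177.0 and 1218.0 with the empty vector. It was lower in 4 of 5 pairs, with a pair 2 difference of 0.004, and its log2 difference was -0.24 (SE 0.09, adjusted p = 0.280 by limma). Probe sets 1424089_a_at and 1416724_x_at differed by -0.24 and -0.25 (adjusted p = 0.269 and 0.256 by limma), lower in 5 of 5 pairs each. The remaining one, 1416725_at, was near background at 5.79 to 9.18 with the shRNA and 6.46 to 10.2 with the empty vector.

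Unlike Mef2c, Tcf4 varied little between pairs, and its control SD at 1434149_at was 18.9 around a mean of 233. The call on 1434149_at held without the pairing (adjusted p = 0.0319), after quantile normalization (0.0389) and without pair 5 (0.0171), but not without pair 1, 2, 3 or 4 (0.0666 to 0.0921 by limma). With the RNA integrity ratio as covariate its change was -0.49 (SE 0.18, adjusted p = 0.854). As the mean of its probe sets Tcf4 changed by -0.29 (SE 0.07, adjusted p = 0.0397 by limma over genes).

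**Figure D3:**
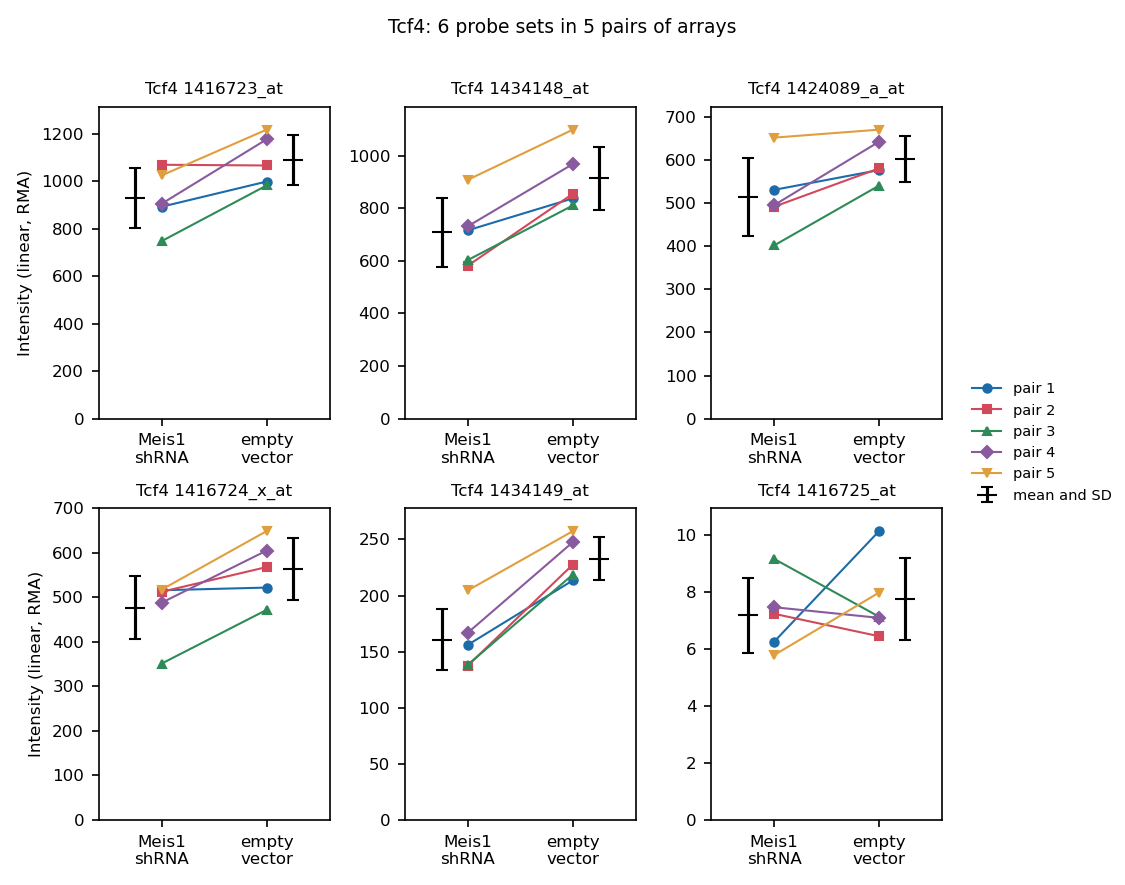
Intensity (linear scale) of the 6 Tcf4 probe sets in the Meis1 shRNA arrays (left) and empty vector arrays (right), lines joining the arrays of a pair, with group means and SD in black (n = 5 each). In 1434149_at the shRNA arrays end at 204.6 and the control arrays begin at 213.5, whereas 1416725_at stays near background.

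Zeb2 (chromosome 2) encodes a zinc finger homeodomain repressor of blood stem and progenitor cells, on which some acute myeloid leukaemia lines depend. Its brightest probe set, 1434298_at, read 64.7, 24.7, 79.4, 83.6 and 112.3 with the shRNA, against 61.1, 60.5, 61.9, 57.4 and 153.8 with the empty vector. Both groups were scattered, with shRNA array 2 far below the others and control array 5 far above them, and 3 pairs were higher and 2 lower. The change was -0.15 (95% interval -0.69 to 0.38, adjusted p = 0.839 by limma), without pair 2 it was 0.13, and with the RNA integrity ratio as covariate it was -0.84 (SE 0.36, adjusted p = 0.895). The interval spans both no change and a decrease as large as that of Tcf4 1434149_at, so a decrease of that size was neither shown nor excluded. Of its 4 other probe sets 2 were near background, and none passed (adjusted p 0.461 to 0.879 by limma over the 5).

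Mecom (chromosome 3) encodes EVI1, a zinc finger factor of blood stem cells that marks some human leukaemias with MLL fusions. The 250 bases before 1 of its 2 RefSeq starts, minus strand of GRCm38.p6, are shown because this was the only one of the 16 member windows with TGACAG, here in capitals on the opposite strand.
Mecom chr3:30013205-30013454: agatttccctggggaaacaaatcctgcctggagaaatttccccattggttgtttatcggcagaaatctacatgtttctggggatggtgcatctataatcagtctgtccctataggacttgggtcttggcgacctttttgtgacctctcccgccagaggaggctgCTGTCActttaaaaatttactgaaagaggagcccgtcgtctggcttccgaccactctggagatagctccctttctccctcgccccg
Probe set 1438325_at read 779.7, 691.7, 669.3, 733.7 and 710.5 with the shRNA, against 727.5, 728.3, 662.9, 725.7 and 686.8 with the empty vector. The groups overlapped almost wholly, with a change of 0.02 (95% interval -0.16 to 0.21, adjusted p = 0.948 by limma). Both other Mecom probe sets, 1423011_at and 1422295_at, were near background, at 2.98 to 8.19 with the shRNA and 3.11 to 6.87 with the empty vector. The platform annotation gives 1438325_at no sequence accession, while the 2 dim ones rest on RefSeq transcripts of the gene. Probe set 1423011_at had a change of 0.30 that did not pass (adjusted p = 0.243 by limma).

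Zfp521 (chromosome 18), a zinc finger cofactor that binds EBF1 and restrains B lymphoid development, was near background in both of its probe sets. Probe set 1439909_at read 5.86 to 7.49 with the shRNA and 5.27 to 6.22 with the empty vector, and 1451332_at read 3.46 to 4.33 with the shRNA and 3.17 to 4.26 with the empty vector. Their changes were 0.21 and 0.02 (adjusted p = 0.450 and 0.968 by limma). A decrease was not detectable at these levels. Arid3b (chromosome 9), a DNA-binding protein with an AT-rich interaction domain, was little brighter. Its probe set 1423526_at read 7.78, 8.83, 8.51, 10.02 and 9.94 with the shRNA, against 8.41, 7.81, 7.93, 9.09 and 8.64 with the empty vector, a log2 difference of 0.10 (SE 0.09, adjusted p = 0.677 by limma). Its other probe set, 1447626_x_at, was near background, with a log2 difference of 0.06 that did not pass.

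Eya1 (chromosome 1), a phosphatase and coactivator that works with sine oculis homeobox proteins, was likewise near background in all 3 probe sets. Their readings ran from 3.21 to 8.45 with the shRNA and from 3.42 to 8.27 with the empty vector, and their changes from -0.14 to -0.01 (adjusted p 0.614 to 0.970 by limma). Jmjd1c (chromosome 10), a JmjC-domain protein of the KDM3 demethylase family that Mll-AF9 leukaemia in mice is known to need, was by contrast well above background. Probe set 1426900_at read 1212, 1062, 1159, 1250 and 1227 with the shRNA, against 1192, 1184, 996, 1169 and 1134 with the empty vector. It was higher in 4 of 5 pairs and the groups overlapped, with a log2 difference of 0.06 (95% interval -0.14 to 0.26, adjusted p = 0.834 by limma). That interval leaves out a decrease of the size fitted for Tcf4 1434149_at (-0.55), though a difference between the 2 genes was not tested. Of the 2 dimmer Jmjd1c probe sets, 1448049_at differed by 0.18 and 1439998_at by -0.06, and neither passed.

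Msi2 (chromosome 11) encodes Musashi 2, an RNA-binding protein that controls translation in blood stem cells and in myeloid leukaemia. Its most upstream RefSeq window is shown for its base composition, 75.6% G or C against a median of 52.4% over all windows. That was not particular to Msi2, as a Jmjd1c window had 79.6% and an Arid3b window 72.8%. The window also holds a match to CANNTG, in capitals (minus strand, GRCm38.p6).
Msi2 chr11:88718278-88718527: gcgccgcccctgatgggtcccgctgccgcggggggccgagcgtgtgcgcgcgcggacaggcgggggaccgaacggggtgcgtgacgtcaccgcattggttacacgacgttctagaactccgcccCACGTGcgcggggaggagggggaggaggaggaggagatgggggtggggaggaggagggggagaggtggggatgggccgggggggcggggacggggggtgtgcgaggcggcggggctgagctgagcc
The probe set 1436818_a_at read 134.7, 191.9, 108.3, 86.9 and 86.0 with the shRNA, against 260.7, 241.0, 160.6, 208.6 and 95.3 with the empty vector. It was lower in all 5 pairs, but by very unequal amounts, from -1.26 in pair 4 to -0.15 in pair 5, where the control array was itself as low as the shRNA arrays. The change of -0.65 had the largest size of the 37 and did not pass (SE 0.16, adjusted p = 0.0759 by limma).

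The other Msi2 probe sets gave mixed values. Probe set 1435521_at read 82.6, 116.9, 50.7, 46.4 and 42.8 with the shRNA, against 82.1, 94.9, 68.9, 77.6 and 50.3 with the empty vector, a change of -0.22 (SE 0.14, adjusted p = 0.556 by limma). In it pairs 1 and 2 were level or higher and pairs 3 to 5 lower. Probe set 1435520_at, from the same sequence accession, read 13.7, 13.7, 13.9, 13.7 and 10.4 with the shRNA, against 21.7, 25.3, 15.0, 26.2 and 9.40 with the empty vector, a change of -0.49 (adjusted p = 0.197 by limma). Probe set 1441185_at differed by -0.03, and the remaining 4 were near background. Without pair 5, 1436818_a_at passed at -0.78 (adjusted p = 0.0327), as it did with trend and robust eBayes (0.0110), whereas with the RNA integrity ratio as covariate its change was -0.05 (adjusted p = 0.998). The ratio was higher with the shRNA in all 5 pairs, so that fit cannot tell RNA integrity and the shRNA apart. In it 0 of all probe sets passed, and Meis1 itself did not (adjusted p = 0.246 by limma). The part of RNA integrity in the Msi2, Mef2c and Tcf4 values was not tested otherwise.

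**Figure D4:**
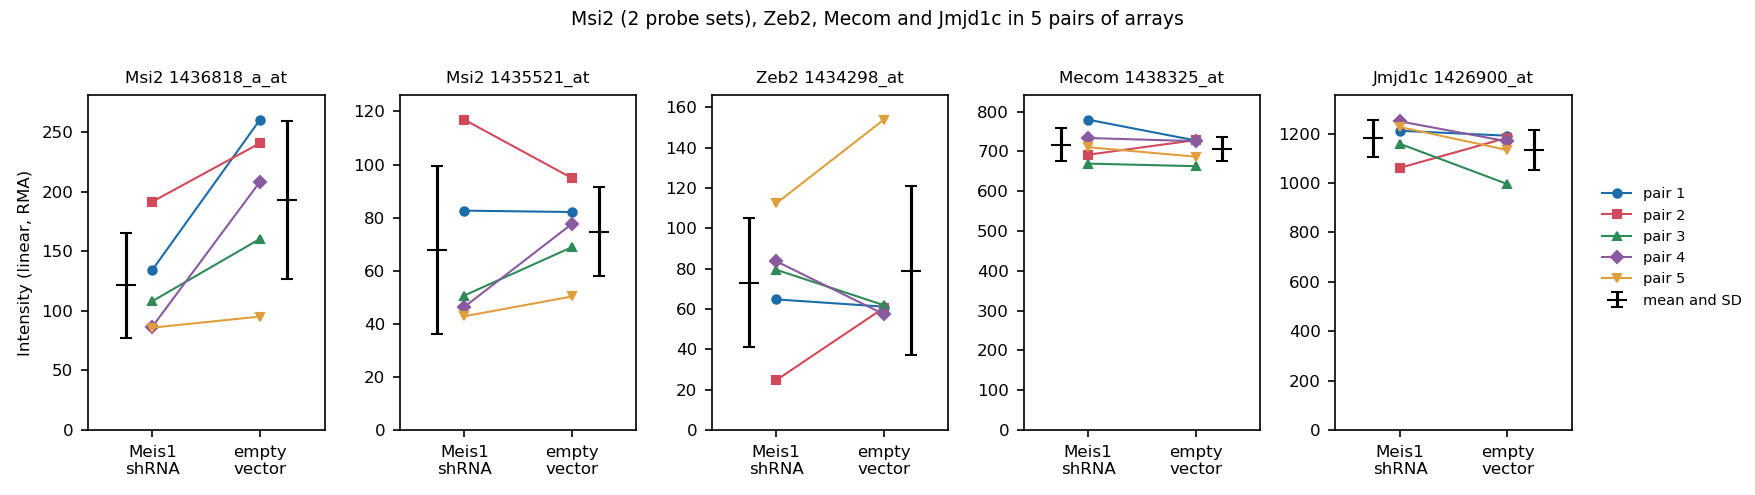
Intensity (linear scale) of 2 Msi2 probe sets and of the brightest probe sets of Zeb2, Mecom and Jmjd1c, Meis1 shRNA arrays left and empty vector arrays right, lines joining pairs, group means and SD in black (n = 5 each). Msi2 1436818_a_at is lower on the shRNA side in every pair, Zeb2 scatters both ways, and Mecom and Jmjd1c have differences of 0.02 and 0.06.

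The count of member probe sets called depended on the processing. With trend and robust eBayes 7 of the 37 probe sets were called, all lower (4 of Mef2c, 2 of Tcf4 and 1 of Msi2), where 5.13% of all probe sets were called. With dim probe sets left out before the fit 6 of 15 were called, where 18.2% of all those fitted were. With any 1 of pairs 1 to 4 left out, without moderation, or with the RNA integrity ratio as covariate, limma or the plain paired statistic called 0, with 12, 12, 9, 8, 9 and 3 at an unadjusted p under 0.05. Over all probe sets 11.9%, 12.1%, 12.8%, 10.6%, 13.2% and 5.56% had such a p in the same fits. The changes of Mef2c 1451507_at stayed between -0.56 and -0.41 and those of Tcf4 1434149_at between -0.60 and -0.46 over the alternatives fitted to those probe sets.

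**Figure D5:**
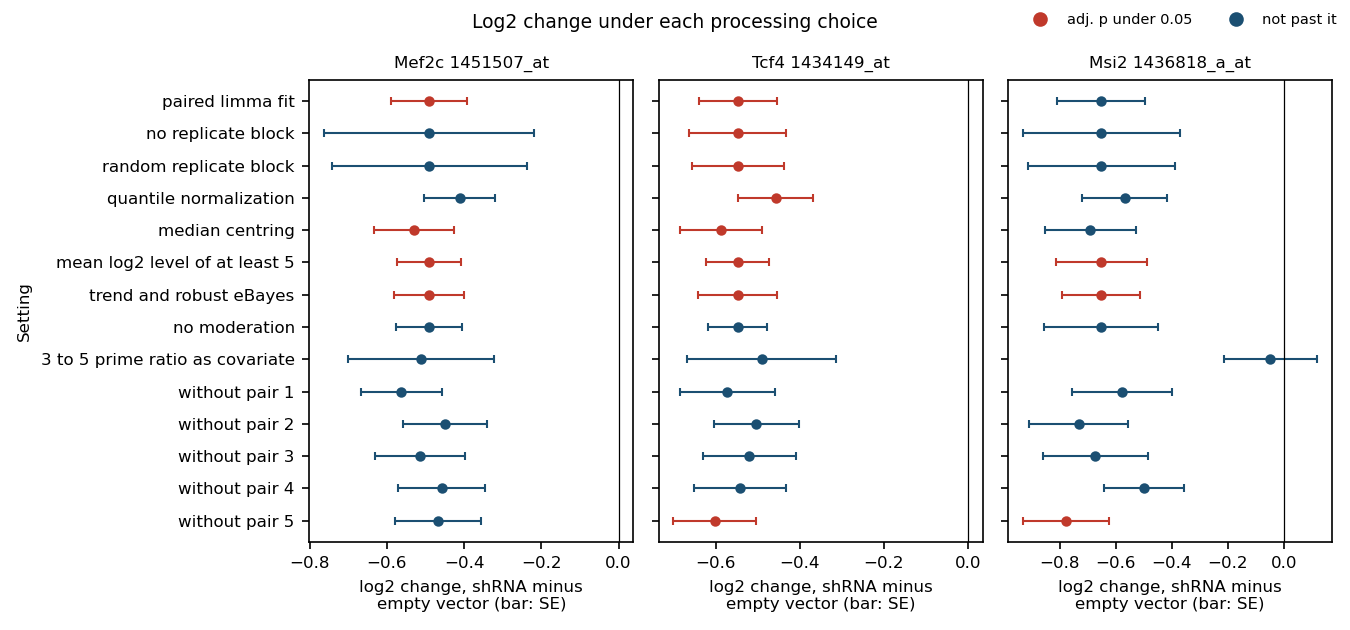
Log2 change (Meis1 shRNA minus empty vector) with its SE for Mef2c 1451507_at, Tcf4 1434149_at and Msi2 1436818_a_at under each fit, red where the adjusted p was under 0.05. The Mef2c changes lie between -0.56 and -0.41 and the Tcf4 changes between -0.60 and -0.46, and the Msi2 difference is -0.05 with the RNA integrity ratio (3 to 5 prime) as covariate.

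The family relatives of the members gave 1 called gene. Of 15 measured relatives, each taken at its brightest probe set, 1 fell, 0 rose and 14 did not pass, with a median change of -0.09, against 3.16% of all 18193 genes called (2.34% lower, 0.813% higher) and a median of 0.004. The gene was Mef2a, a MEF2 factor that binds the same consensus as Mef2c. Its probe set 1427185_at read 116.4, 85.8, 108.7, 115.9 and 132.1 with the shRNA, against 167.8, 187.3, 168.0, 199.7 and 146.4 with the empty vector. The groups did not overlap. On the array, every shRNA array lay below every control array in 2.75% of all probe sets, and in 1141 of the 18805 not near background. Tcf12, Ctbp2, Cdk6 and Myb, named below, had no overlap either and did not pass in the paired fit. The same held for Mapk14, of the partners described below, and for Ptprc, of the myeloid leukaemia markers. The Mef2a change was -0.64 (SE 0.13, adjusted p = 0.0445 by limma), and of the 6 Mef2a probe sets 2 passed. The call on 1427185_at was lost after quantile normalization (adjusted p = 0.0643 by limma), without moderation, with the RNA integrity ratio as covariate, and with any 1 of pairs 1 to 4 left out (0.120 to 0.184). Mef2d, the third MEF2 gene above background, differed by -0.02 (adjusted p = 0.975). The E proteins Tcf3 and Tcf12, which share the E-box with Tcf4, differed by -0.41 and -0.17 and did not pass (adjusted p = 0.134 and 0.410 by limma). Zeb1 differed by -0.25, Kdm3a by 0.08 and Kdm3b by -0.35, without passing.

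Among 15 measured partners, proteins that bind members or are known to be regulated by them, 0 passed by limma and 3 had an unadjusted p under 0.05, as had 17.2% of all genes, with a median log2 difference of 0.05. With trend and robust eBayes 1 was called, the corepressor Ctbp2, lower with the shRNA. Id2, which binds E proteins and blocks their contact with DNA, read 453.1, 395.9, 235.1, 310.9 and 33.9 with the shRNA, against 705.8, 625.4, 351.7, 465.7 and 198.4 with the empty vector. It was lower in every pair, by -2.55 in pair 5 and by -0.66 to -0.58 in the others, and its log2 difference of -1.002 did not pass (SE 0.27, adjusted p = 0.108 by limma). Without pair 5 the change was -0.62 and passed (adjusted p = 0.0128 by limma). Numb, whose RNA Musashi proteins bind, differed by 0.20 (adjusted p = 0.473).

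Of 24 measured other targets of MLL fusions, 2 fell, 0 rose and 22 did not pass, with a median change of -0.13. Over all 18193 genes 3.16% were called (2.34% lower, 0.813% higher), with a median of 0.004. The 2 that fell were Meis1, the target of the hairpin, and Runx1, a core factor of blood stem cells (-0.81, SE 0.12, adjusted p = 0.0112 by limma). Runx1 read 25.2, 26.2, 17.9, 19.4 and 13.3 with the shRNA, against 37.3, 45.3, 43.2, 37.0 and 19.2 with the empty vector, lower in every pair. These are values of its brightest probe set, 1422864_at, and of the 6 Runx1 probe sets 3 passed. The call on 1422864_at was lost without the pairing (adjusted p = 0.127 by limma) and with a random block for the pairs (0.0869). It was also lost without moderation, with the RNA integrity ratio as covariate, and without pair 2 (0.0516) or pair 4 (0.0646). Cdk6, a G1 kinase, differed by -0.38 without passing over all probe sets (adjusted p = 0.0561), and Flt3 and Myb by -0.25 and -0.20 (adjusted p = 0.520 and 0.303 by limma). That list was written with earlier results of these arrays known, as were the members, relatives and partners. The direction of change in any of them is therefore no independent evidence.

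Genes whose levels ran most like those of the members over the 10 arrays were sought among 6715 other genes with a mean log2 level of at least 5. For Mef2c at its brightest probe set they were Ikzf1 (Pearson r = 0.985) and Phka2 (0.975). For Tcf4 they were Sirt3 (0.928) and Osbpl1a (0.918), and for Msi2 Lrp8 (0.982) and Galnt1 (0.980). For Zeb2 they were Gbe1 (0.968) and Ppp1cb (0.966), for Mecom Wdr37 (0.891) and Ten1 (0.882), and for Jmjd1c Brk1 (0.926) and Ncdn (0.917). These correlations describe 10 arrays that share pairs and normalization, and each is among the 2 highest of 6715. None of the 12 genes passed the comparison itself (adjusted p 0.0887 to 0.991 by limma).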

How the data were processed

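Gene expression was measured in 10 samples on Affymetrix mouse arrays, 5 with a Meis1 shRNA and 5 with an empty vector. The deposited table holds intensities between 1.30 and 32400 on a linear scale, made by the authors with RMA, per the submitters' processing notes. The sources used here do not state its version or settings. RMA usually gives log2 values; that these were returned to a linear scale is read from their range. For the tests log2 was taken without a pseudocount, and 64 control probe sets were left out. No detection calls were used, and precision is limited by how many arrays there were. Of the 45037 remaining probe sets 34945 had 1 gene symbol.

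Groups were compared over all probe sets with limma (version 3.58.1, R 4.3.3), with the pair number as a fixed block and Benjamini-Hochberg adjustment at 0.05, two-sided. The treatment protocol in the labels states the pairing by number. Deviations from group means correlated at 0.310 to 0.600 within pairs over the 11215 probe sets that averaged at least 5 on the log2 scale, and the consensus correlation over all probe sets, used for the random block, was 0.080. On simulated data the paired fit over 45037 probe sets called 99 of 100 with a 2-fold change, 72 of 100 with a 1.5-fold change and 9 of 44837 unchanged. The changed probe sets were drawn from those averaging at least 5 on the log2 scale, with independent normal noise. Only 15 member probe sets reached that level. The rates do not describe the dimmer ones, or scattered ones such as the brightest of Zeb2.

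All member probe sets were described, in full for each member's brightest and for those past the threshold, and other probe sets of a member were added where they differed. For lists, each gene was represented by its brightest probe set with its p adjusted over all probe sets. Every called gene was named, up to 6 a list, with Cdk6, Runx1, Flt3 and Myb. Mef2d, Tcf3, Tcf12, Zeb1, Kdm3a, Kdm3b, Id2, Numb, Ctbp2, Hoxa7, Mapk14 and Ptprc were named after their values were seen. For likeness, 2 genes per member with a mean log2 level of at least 5 were named. The members, lists and rules were chosen with earlier results of these data known. Promoter sequences come from RefSeq (GRCm38.p6), where 6 of 9 members matched, and chromosomes from RefSeq's gene table, where all 9 did. Which build the probes were designed on is not stated in the sources used. Alternatives were an unpaired fit, a random block, quantile normalization, median centring, a filter on dim probe sets, trend and robust eBayes, no moderation, the RNA integrity ratio (3 prime over 5 prime signal) as covariate, the brightest probe set per gene, each pair left out, and, added after the data were seen, the mean of a gene's probe sets.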

Additional observations from a re-analysis of the deposited data

Results flagged for a closer look

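In 6 of 80 groups of 5 arrays, taken over the 37 member and 3 Meis1 probe sets, 1 array lay far from the other arrays of its group by Dixon's test. Chance alone marks about 1 of 20 groups. In Tcf4 1416724_x_at, shRNA array 3 read 351.2, with the others at 487.8 to 517.2. In Zeb2 1434298_at, control array 5 read 153.8, with the others at 57.4 to 61.9. In Eya1 1443117_at, near background, control array 5 read 8.269, with the others at 6.121 to 6.503. In Jmjd1c 1426900_at, control array 3 read 996, with the others at 1134 to 1192. In Msi2 1435520_at, shRNA array 5 read 10.35, with the others at 13.7 to 13.9. In Msi2 1421231_at, also near background, shRNA array 5 read 8.016, with the others at 6.21 to 6.46. Arrays of pair 5 account for 4 of the 6, and the cause was not tested.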

How the results depend on the processing

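The count of member probe sets called, 2 in the paired fit with the replicate block, was 1 without the block, 1 with a random block and 1 after quantile normalization. It was 6 among the brighter probe sets, 7 with trend and robust eBayes, 0 without moderation, 0 with the RNA integrity ratio as covariate, 0 of 9 with the brightest probe set a gene, and 0 to 3 with a pair left out, 0 without any 1 of pairs 1 to 4 and 3 without pair 5 (Tcf4 1434149_at, Msi2 1436818_a_at and Msi2 1435520_at). The cause was not tested, except that fewer samples or fewer tests are built into some of these fits. Over all probe sets the count of 1116 was 2040, 2309, 33, 0 (2504 at an unadjusted p under 0.05) and 739 in the fits on brighter probe sets, with trend and robust eBayes, without moderation, with the covariate and with 1 probe set a gene, and 359 to 1674 with a pair left out.

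Among relatives the count of 1 (Mef2a) was 0 after quantile normalization, without moderation and with the covariate, 3 among brighter probe sets, and 0 to 1 with a pair left out. Among partners the count of 0 was 1 among brighter probe sets and with trend and robust eBayes (Ctbp2), and 0 to 1 with a pair left out (Id2 without pair 5). Among other MLL-fusion targets the count of 2 (Meis1 and Runx1) was 1 without the replicate block (Meis1), 2 with a random block (Meis1 and Cdk6), 4 among brighter probe sets (3 lower and Hoxa7 higher), 5 with trend and robust eBayes, 0 without moderation and with the covariate, and 1 to 3 with a pair left out.

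Meis1 did not pass without moderation (-1.09, adjusted p = 0.0542) or with the covariate (-0.98, adjusted p = 0.246), and was at -1.14 to -1.05 with a pair left out. Mef2c 1451507_at did not pass without the replicate block (-0.49), with a random block (-0.49), after quantile normalization (-0.41), without moderation (-0.49), with the covariate (-0.51) or with any pair left out (-0.56 to -0.45). Tcf4 1434149_at did not pass without moderation (-0.55) or with the covariate (-0.49), and was at -0.60 to -0.50 with a pair left out. Mef2c 1421027_a_at had the opposite sign with the covariate (0.015), as had Mecom 1438325_at with median centring (-0.019). With a pair left out Zeb2 1434298_at ran from -0.33 to 0.13 and Eya1 1443117_at from -0.14 to 0.070. Signal over background limits what can be said of Eya1, Zfp521 and Arid3b, whose brightest probe sets read at most 10.02.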
